A study of Homo sapiens with 32 samples.

Results

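Acetyl-CoA and citrate metabolism is described here through 9 genes, ACLY, ACSS2, ACSS1, SLC25A1, CS, ACO1, IDH1, IDH2 and PDHA1. They were chosen by name, and each was found once among the 60107 genes of the count tables. All 9 had a mean normalized count of at least 10 and are among the 12402 genes tested. The data are 32 RNA-seq libraries of THP-1, a human monocytic leukemia cell line, in 8 groups of 4. The study asked what the catalytic activity and the serine 455 phosphorylation of ATP-citrate lyase (ACLY) contribute to gene expression in these cells.

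All 4 lines descend from ACLY knockout THP-1 cells. KO cells are labelled as lacking ACLY. WT cells received wild type ACLY, HA cells the catalytically inactive H760A mutant, and SA cells the S455A mutant that cannot be phosphorylated at serine 455. Each line was either unstimulated or stimulated for 3 h with 100 ng/ml lipopolysaccharide (LPS), which monocytes sense as a sign of bacteria. WT, HA and SA cells were made by lentiviral transduction with ACLY coding sequences and selected with puromycin. Whether KO cells carry a vector is not stated in the sources used here. Since the labels give a single line for each genotype, libraries within a group repeat that line. P-values measure the spread between such libraries, and other differences between the lines cannot be told apart from the genotype. In bulk RNA, fewer cells with a transcript and less of it per cell cannot be told apart either.

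Citrate is made in mitochondria from oxaloacetate and acetyl-CoA, and acetyl-CoA for this step comes from pyruvate through the pyruvate dehydrogenase complex. Citrate that leaves through the mitochondrial citrate carrier is cleaved by ACLY into acetyl-CoA and oxaloacetate, which supplies the cytosol and nucleus with acetyl-CoA for lipid synthesis and histone acetylation. Cells without ACLY are known to draw on acetate instead, which ACSS2 activates in the cytosol and nucleus and ACSS1 in mitochondria. Aconitase and the isocitrate dehydrogenases carry citrate carbon on to 2-oxoglutarate.

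ACLY (ENSG00000131473, GRCh38 chromosome 17, 41866917 to 41930542) is read from the minus strand. The canonical transcript in GENCODE has 29 exons and 1101 codons. Its coding sequence around the 2 mutated residues is shown because these residues separate the lines. The codon of each mutated residue is in capitals, and both stretches are reference sequence of 45 bases and not reads of these libraries. The serine codon lies in exon 13 at 41897813 to 41897815, and the histidine codon in exon 21 at 41878910 to 41878912. The first stretch is within exon 13, and the second joins the end of exon 20 to the start of exon 21.
ACLY serine 455, S455A in SA cells: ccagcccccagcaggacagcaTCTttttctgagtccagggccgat
ACLY histidine 760, H760A in HA cells: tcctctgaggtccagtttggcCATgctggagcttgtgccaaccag

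Depth ran from 6504099 to 14750815 reads on genes in a library. Values are normalized counts, that is, recovered reads divided by 1 set of size factors for all 32 libraries. The kit reads the 3′ end of a transcript, so levels are compared within a gene and not between genes. All 12 monocytic markers examined had a mean of at least 10 over the 32 libraries. Of 15 markers of other cells, 10 had a mean below 1. The summed level of 7 LPS-induced genes was 3712 to 8304 in unstimulated libraries and 7841 to 21772 after LPS, with no overlap within any line. SA LPS replicate 1 stood apart from its group, with a root mean square log2 distance of 1.89 from the mean of the other libraries against a median of 0.60 over all 32 libraries. KO replicate 3 was at 1.10 and HA LPS replicate 1 at 0.94. Values without one of these libraries are given beside the results that moved most with it.

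ACLY is the targeted gene, and its count did not separate KO from WT libraries. In unstimulated WT cells its normalized count was 117, 101.3, 90.7 and 97.1 in replicates 1 to 4, and in KO cells 97.4, 107, 82.4 and 67.2. The groups overlapped, with means of 102 ± 11.4 and 88.5 ± 17.4 (SD, n = 4). After LPS, WT libraries stood at 117, 97.1, 124 and 101.4, and KO libraries at 68.8, 99.9, 77.9 and 60.3. Here too the highest KO library lay above the lowest WT library. The log2 fold change of KO over WT was -0.21 (SE 0.28, limma adjusted p = 0.883) in unstimulated cells and -0.53 (SE 0.28, adjusted p = 0.357) after LPS. Libraries made from the 3′ end do not show whether a transcript is intact. Per the methods, the constructs hold the coding sequence of ACLY within a vector, whereas the kit reads the 3′ end of a transcript. How much of the ACLY count comes from the edited gene and how much from a construct was not tested. ACLY counts are therefore not taken as the level of the re-expressed enzyme.

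ACLY in HA libraries was 133, 81.4, 67.2 and 105 in unstimulated cells and 60.3, 64.8, 74.3 and 88.3 after LPS. The LPS-treated HA libraries were all below the lowest LPS-treated WT library. Their difference to WT was -0.61 on the log2 scale (SE 0.28, adjusted p = 0.266). SA cells had the highest ACLY level in unstimulated cells, with 162, 158, 149 and 102 in replicates 1 to 4. After LPS, SA replicate 1 was at 329 and the other libraries at 100.2, 110.3 and 95.8. That group had a mean of 159 ± 114 (n = 4) with replicate 1 and 102 ± 7.46 (n = 3) without it. The log2 fold change of SA over WT after LPS was accordingly 0.32 with this library and -0.10 without it, and neither passed the test (adjusted p = 0.842 and 0.9999).

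ACSS2 (ENSG00000131069, chromosome 20, 34872146 to 34927962, plus strand), which turns acetate into acetyl-CoA in the cytosol and nucleus, was lowest in WT and highest in HA cells. Its normalized count in unstimulated WT libraries was 106, 86.2, 115 and 91.0. KO libraries had 139.7, 153, 238 and 178, and HA libraries 190.1, 204, 153 and 251. No KO or HA library overlapped with WT. The group means were 99.6 ± 13.4 in WT, 177 ± 43.4 in KO, 200 ± 40.5 in HA and 128 ± 23.7 in SA (n = 4 each), and the SA libraries, at 139.5, 104, 113 and 156, overlapped with WT and KO. KO cells had 1.75-fold the WT level (95% confidence interval 1.14 to 2.67) and HA cells 1.98-fold (1.29 to 3.02). Neither passed the limit of 0.01 over all genes (adjusted p = 0.151 and 0.0442). KO replicate 3 was the highest KO library, and without it the log2 fold change of KO over WT went from 0.80 to 0.65 (adjusted p = 0.379). Without SA LPS replicate 1, which enters through the shared estimate of spread, the HA difference passed (adjusted p = 0.00578). Replicate numbers were taken as pairs for WT and KO libraries, although some libraries of unlike number correlated as strongly. In a fit of WT and KO libraries alone with the replicate number as a block, their difference passed (adjusted p = 0.00303).

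After LPS, ACSS2 was at 108, 93.6, 108 and 95.1 in WT libraries. The HA libraries, at 336, 166, 169 and 147, were all above them. KO LPS replicate 1, at 96.1, lay inside the WT range and the other KO libraries, at 153, 189 and 161, above it. SA libraries were at 308, 93.1, 109 and 88.9, so that replicate 1 was far above the highest WT library and replicate 3 just above it. HA cells had 1.91-fold the WT level (1.25 to 2.91, adjusted p = 0.0805), which corresponds to 0.93 on the log2 scale. Without HA LPS replicate 1 the log2 fold change was 0.66 (adjusted p = 0.372). KO cells had 1.44-fold the WT level (0.94 to 2.20, adjusted p = 0.401). The plot of the acetyl-CoA enzymes shows these libraries side by side.

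**Figure D1:**
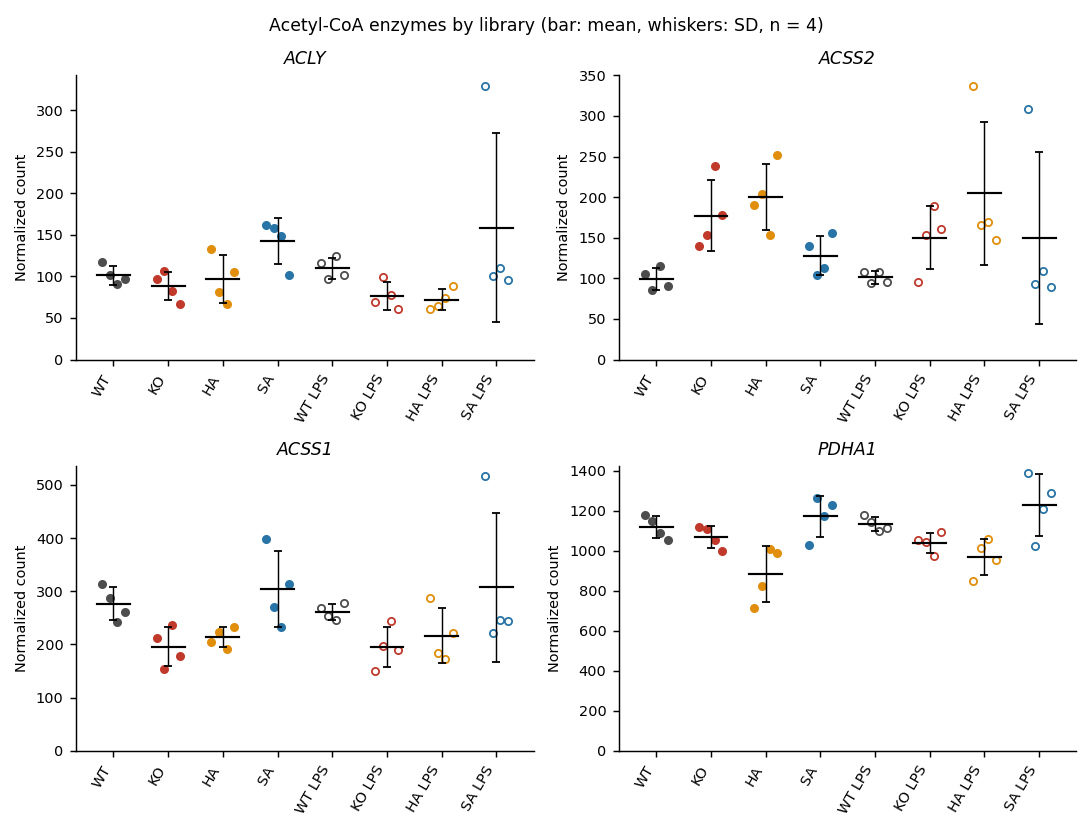
Normalized counts of ACLY, ACSS2, ACSS1 and PDHA1 (vertical axes, from 0) in the 8 groups, with 1 point per library (filled unstimulated, open after LPS), a bar for the mean and whiskers for the SD of 4 libraries. ACSS2 stands higher in KO and HA than in WT, ACSS1 lower, and SA LPS replicate 1 is the highest library for ACLY (329) and ACSS1 (518).

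ACSS1 (ENSG00000154930, chromosome 20, 25006230 to 25058980, minus strand), the mitochondrial acetyl-CoA synthetase, was lower in KO and HA than in WT libraries. Unstimulated WT libraries were at 313, 288, 243 and 262. KO libraries stood at 213, 153, 236 and 178 and HA libraries at 205, 223, 191 and 234, all of them below the lowest WT library. SA libraries, at 398, 270.5, 233 and 314, spanned the WT range on both sides. The KO level was 0.70-fold that of WT (0.52 to 0.95, adjusted p = 0.239) and the HA level 0.77-fold (0.57 to 1.05, adjusted p = 0.285). After LPS, WT libraries were at 268, 253, 245 and 277 and KO libraries at 151, 197, 243 and 189. The groups again did not overlap, although KO LPS replicate 3 and WT LPS replicate 3 were almost level. HA LPS replicate 1, at 288, was above all WT libraries, with the other HA libraries at 172 to 222.

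PDHA1 (ENSG00000131828, chromosome X, 19343893 to 19361718, plus strand) encodes the alpha subunit of the first enzyme of the pyruvate dehydrogenase complex. Its normalized count was 1179, 1149.5, 1089 and 1055 normalized counts in unstimulated WT libraries. KO libraries stood at 1120.5, 1106, 1055 and 999.9, overlapping with WT. HA libraries, at 714, 822, 1011 and 990.2, were all below WT, and their level was 0.78-fold that of WT (0.67 to 0.92, adjusted p = 0.0548). After LPS, both KO (971 to 1094) and HA (850.2 to 1057) libraries were below the lowest WT library at 1096. Each of the 4 KO libraries was below the WT library of its number in both states, and the share of all genes with such an order was not computed. The differences were small and did not pass. The KO level was 0.96-fold that of WT in unstimulated cells (0.82 to 1.12, limma adjusted p = 0.924). After LPS it was 0.92-fold (0.78 to 1.07, limma adjusted p = 0.675). SA libraries ranged from 1029.7 to 1261 in unstimulated cells and from 1022 to 1390.4 after LPS, overlapping with WT.

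The remaining genes handle citrate itself. SLC25A1 (chromosome 22, 19175581 to 19178739, minus strand), the mitochondrial citrate carrier, was at 923, 842, 1239 and 1095 in unstimulated WT cells and at 2108, 1487, 1207 and 1565 in HA cells, a 1.54-fold higher level (1.10 to 2.16, adjusted p = 0.112) with 1 HA library inside the WT range. KO libraries, at 792, 1079.7, 1385 and 1257, reached below and above those of WT. After LPS the HA libraries, at 1106 to 1975, were above the WT libraries, at 957 to 1079. CS (chromosome 12, 56271699 to 56300391, minus strand), which makes citrate, differed least between groups, with means from 738 in SA to 908 in LPS-treated KO cells, a ratio of 1.23. SA LPS replicate 1 had the lowest CS count, 534, against 754 to 917 in the others of its group.

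ACO1 (chromosome 9, 32384603 to 32454769, plus strand) is the cytosolic aconitase, which becomes an iron-regulatory RNA-binding protein when it loses its iron-sulfur cluster. Unstimulated WT libraries were at 149, 157, 203 and 132 and KO libraries at 87.2, 98.4, 138 and 137, with a KO level of 0.72-fold (0.54 to 0.95, adjusted p = 0.23). The highest group mean was that of LPS-treated HA cells at 183 ± 56.4, where replicate 1 was at 263 and the others at 135 to 180.3. Without replicate 1 that mean was 157 ± 22.5 (n = 3).

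IDH1 (chromosome 2, 208236229 to 208266074, minus strand) and IDH2 (chromosome 15, 90083045 to 90102477, minus strand) encode the NADP-dependent isocitrate dehydrogenases of cytosol and mitochondria. IDH1 was highest in KO cells, with 524, 564, 322 and 516 unstimulated against 421, 371, 176 and 441 in WT, a 1.42-fold level (0.93 to 2.15, adjusted p = 0.491). In both lines replicate 3 was the lowest library, and each KO library exceeded the WT library of its number. KO exceeded HA in unstimulated cells by 0.70 on the log2 scale (SE 0.29, adjusted p = 0.422). IDH2 stood within 2627 to 2765 in unstimulated WT libraries, and the KO libraries, at 3170.4, 2877, 3557 and 2909, and the HA libraries, at 2990.5, 3593, 2907 and 3358, were all above. The IDH2 level was 1.16-fold in KO (0.99 to 1.36, adjusted p = 0.385) and 1.19-fold in HA (1.02 to 1.40, adjusted p = 0.156). After LPS the KO libraries, at 2398, 2484, 2729 and 3071, overlapped with WT, and their difference was -0.08 on the log2 scale (adjusted p = 0.84).

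**Figure D2:**
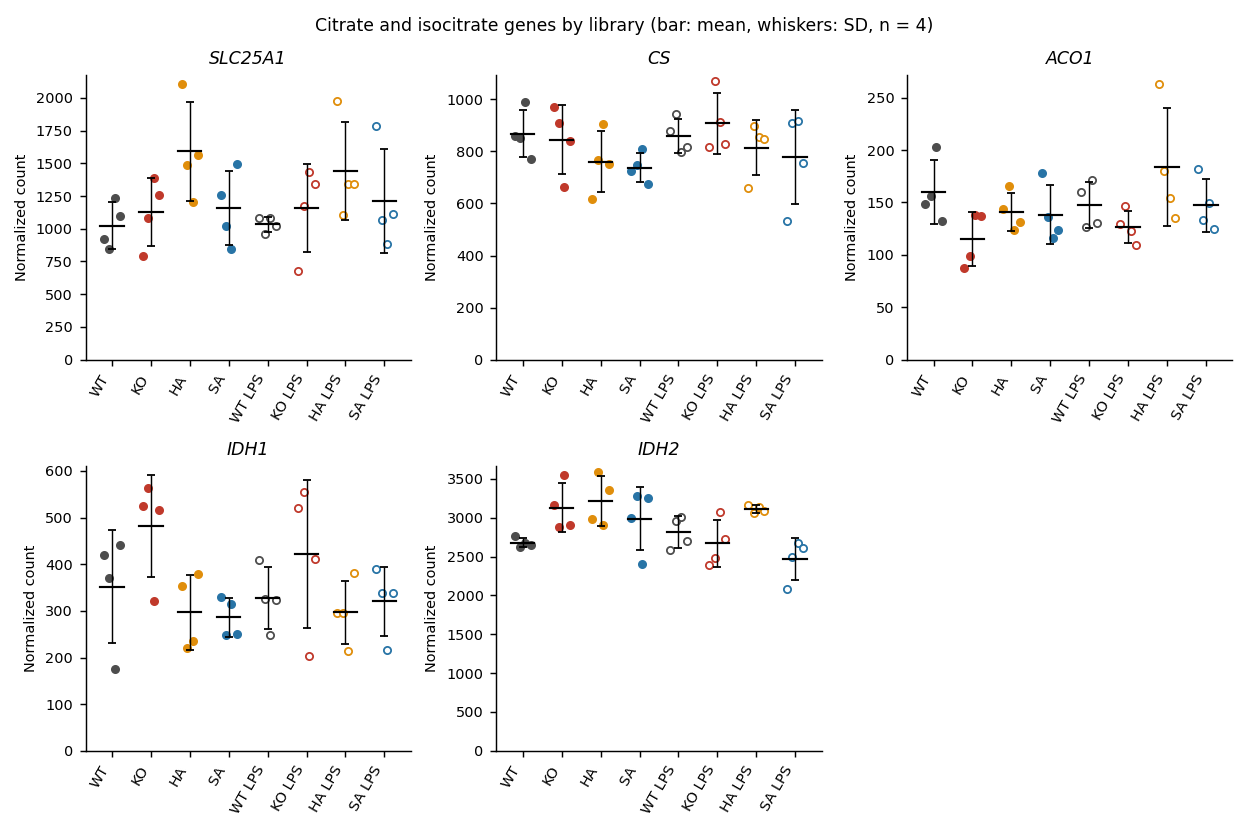
Normalized counts of SLC25A1, CS, ACO1, IDH1 and IDH2 (vertical axes, from 0) in the 8 groups, with 1 point per library (filled unstimulated, open after LPS), a bar for the mean and whiskers for the SD of 4 libraries. Unstimulated KO and HA libraries lie above the range of unstimulated WT libraries for IDH2 (2627 to 2765), KO libraries after LPS do not (2398 to 3071), and CS has the smallest ratio between the highest and lowest group mean, 1.23.

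When the 8 groups were ordered by their means, the libraries of neighbouring groups overlapped in 7 of 7 pairs for each of the 9 genes. Neighbours in an order made from the same means tend to overlap, and the share over all genes was not computed. The overlap is thus a caution on the order and no result about these genes. The ratio of the highest to the lowest group mean was 2.21 for ACLY (SA LPS over HA LPS), 2.06 for ACSS2 (HA LPS over WT), 1.68 for IDH1, 1.59 for ACO1, 1.58 for ACSS1 (SA LPS over KO LPS), 1.55 for SLC25A1, 1.39 for PDHA1, 1.30 for IDH2 and 1.23 for CS. Those of ACLY, ACSS1 and PDHA1 take SA LPS as the highest group and rest in part on its replicate 1. Those of ACSS2 and ACO1 take HA LPS as the highest group, whose means without replicate 1 were 161 and 157. Behind these levels were 52 reads for ACLY and 68 for ACO1 in the library with the fewest, and 1729 for IDH2.

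Against WT, none of the 9 genes passed the test in any single line. In unstimulated cells, 0 of 9 were called in KO, where 2.92% of all genes tested were, 0 of 9 in HA, against 2.52% of all genes, and 0 of 9 in SA, against 0% of all genes. After LPS, the counts were 0 of 9 in KO (3.48% of all genes), 0 of 9 in HA (2.02%) and 0 of 9 in SA (0%). At an unadjusted p below 0.05 there were 3 genes in KO (ACSS2, ACSS1 and ACO1) and 4 in HA (ACSS2, PDHA1, SLC25A1 and IDH2) in unstimulated cells, against 14.3% and 24.6% of all genes. After LPS there were 0 in KO and 3 in HA (ACSS2, ACLY and PDHA1), against 17.3% and 16.7% of all genes. SA had 0 in either state, where 445 and 646 of all genes were below this limit in unstimulated and LPS-treated cells. The limma estimates had standard errors from 0.11 for IDH2 to 0.30 for ACSS2 on the log2 scale.

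Libraries of the 2 groups did not overlap for 3 of 9 genes in unstimulated KO against WT (ACSS2, ACSS1 and IDH2), where 12.1% of all genes did not overlap, and for 4 of 9 in HA (ACSS2, ACSS1, IDH2 and PDHA1), where 17.6% did not. After LPS this was 2 of 9 in KO (ACSS1 and PDHA1), against 14% of all genes, and 5 of 9 in HA (ACLY, ACSS2, SLC25A1, IDH2 and PDHA1), against 13.5%. SA and WT overlapped for all 9 genes in both states, with 4.23% of all genes apart in unstimulated cells and 2.61% after LPS. The fold of SA over WT for ACSS2 had a confidence interval of 0.83 to 1.95 in unstimulated cells and 0.84 to 1.95 after LPS, so these libraries do not show that the lines had equal levels. Without SA LPS replicate 1 the log2 fold change after LPS went from 0.35 to -0.06.

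**Figure D3:**
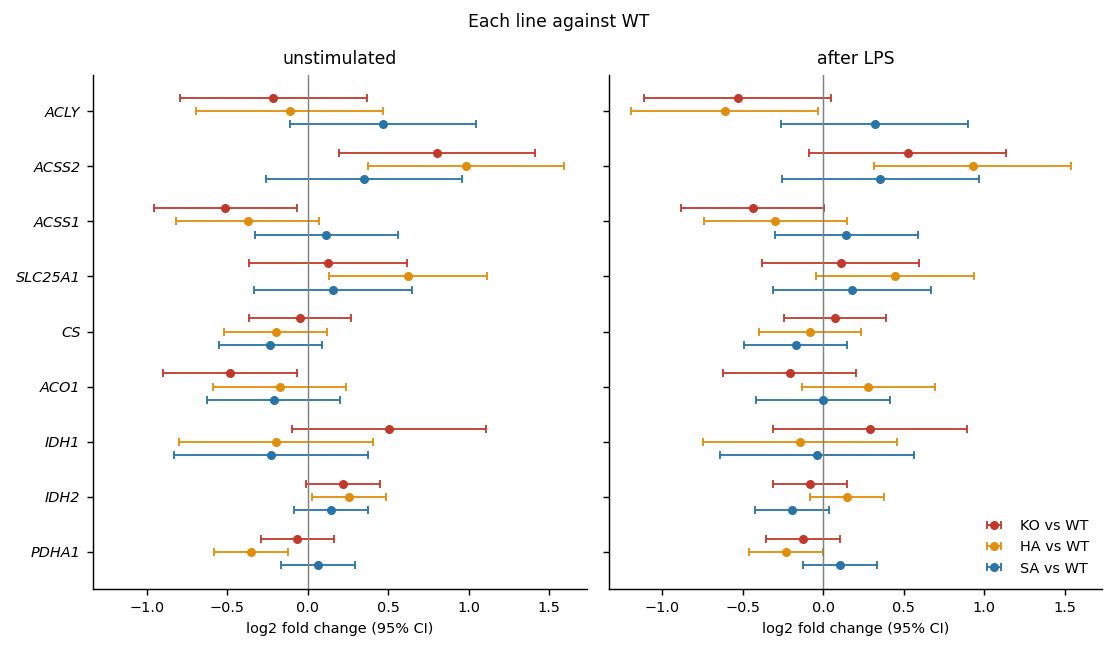
Log2 fold change of the 9 genes (rows) in KO, HA and SA cells relative to WT, unstimulated (left) and after LPS (right), with points for the limma estimate from 4 libraries per group and lines for the 95% confidence interval. ACSS2 is the gene farthest to the right in KO and HA, at 0.80 and 0.98 in unstimulated cells, and none of the estimates passed an adjusted p of 0.01.

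KO and HA cells, which lack the protein or hold an inactive one, could be compared directly. In unstimulated cells 0 of 9 genes were called between them, against 0.226% of all genes, and after LPS 0 of 9, against 0.00806%. At an unadjusted p below 0.05, IDH1 and PDHA1 were higher and SLC25A1 lower in unstimulated KO than in HA cells, and ACO1 was lower in KO after LPS. Of all genes, 10.4% and 10.5% were below this limit in unstimulated and LPS-treated cells. The ACO1 difference was -0.49 on the log2 scale with HA LPS replicate 1 and -0.30 without it. KO and HA libraries overlapped for each of the 9 genes in both states, and the share over all genes was not computed.

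Over both states, 4 of the 9 genes differed between the lines without ACLY activity (KO and HA) and those with it (WT and SA), against 14.6% of all genes tested, 1812 of 12402. ACSS2 was higher without activity, by 0.63 on the log2 scale (SE 0.15) or 1.55-fold (1.26 to 1.92, limma adjusted p = 0.00213). ACLY was lower by -0.56 (SE 0.14, 0.68-fold, adjusted p = 0.00384), ACSS1 by -0.47 (SE 0.11, 0.72-fold, adjusted p = 0.00182) and PDHA1 by -0.24 (SE 0.056, 0.85-fold, adjusted p = 0.00232). The 2 acetyl-CoA synthetases thus moved in opposite directions. For each of the 4 genes the 16 libraries of one side overlapped with the 16 of the other. The share of all genes with such overlap was not computed. The other differences were 0.24 for SLC25A1 (adjusted p = 0.151), 0.15 for IDH2 (adjusted p = 0.0534), 0.18 for IDH1 (adjusted p = 0.417), -0.09 for ACO1 (adjusted p = 0.558) and 0.04 for CS (adjusted p = 0.78).

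This comparison rests on a pair of lines on each side, and its p-values count libraries and not lines. Without SA LPS replicate 1 the same 4 genes passed, with ACSS2 at 0.74, ACLY at -0.46, ACSS1 at -0.40 and PDHA1 at -0.22, and 2547 of all genes were called. Without HA LPS replicate 1 they passed as well, with ACSS2 at 0.57 and ACLY at -0.54. In unstimulated libraries alone none of the 4 passed 0.01, with ACSS2 at 0.72 (adjusted p = 0.0254), ACSS1 at -0.50 (0.0331), PDHA1 at -0.24 (0.0479) and ACLY at -0.40 (0.23). In LPS-treated libraries alone none passed either, with ACLY at -0.73 (adjusted p = 0.0144), ACSS2 at 0.55 (0.094), ACSS1 at -0.44 (0.0627) and PDHA1 at -0.23 (0.0565).

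LPS left the 9 genes without a called change. In WT cells 0 of 9 were called, against 0.25% of all genes, in KO 0 of 9, against 0.581%, in HA 0 of 9, against 0.403%, and in SA 0 of 9, against 0.492%. At an unadjusted p below 0.05, IDH2 was lower after LPS in KO (-0.23, adjusted p = 0.914) and in SA (-0.27, adjusted p = 0.40), and no other member was below this limit. In WT cells the 9 log2 fold changes lay between -0.11 and 0.11. For ACSS2 in WT cells, LPS over unstimulated was 1.02-fold (0.67 to 1.56), and for IDH2 it was 1.05-fold (0.90 to 1.23). The LPS response did not differ by the test between KO and WT (0 of 9 genes, 0.00806% of all genes), HA and WT (0 of 9, 0%) or SA and WT (0 of 9, 0%). Over all genes, 175, 141 and 457 had an unadjusted p below 0.05 in these comparisons, and among the members IDH2 in SA did (-0.34 on the log2 scale, adjusted p = 0.997).

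A further 64 genes of the same pathways, in 5 lists, were examined, of which 61 passed the filter on low counts. Against WT, 0 of 61 were called in any line, with 2 in KO, 11 in HA and 2 in SA at an unadjusted p below 0.05 in unstimulated cells, where 14.3%, 24.6% and 3.59% of all genes were below it. After LPS there were 11, 4 and 2, against 17.3%, 16.7% and 5.21% of all genes. Between lines without and with ACLY activity 5 of 61, or 8.2%, were called against 14.6% of all genes. Of 13 genes of pyruvate entry and the pyruvate dehydrogenase complex, 1 was called and the median log2 fold change was 0.00. This was PDP1, a phosphatase that activates the complex, at 0.50 (SE 0.14, adjusted p = 0.00916), with 104 ± 24.7 counts in unstimulated WT and 182 ± 35.4 in HA cells. Of 15 TCA cycle genes 0 were called, with a median of -0.14, against -0.01 for all genes. Their log2 fold changes ran from -0.92 to 0.50, so the lack of a call does not show that these genes were level.

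Of 12 genes of the citrate and malate shuttles 1 was called, with a median of -0.01. This was ME1, the cytosolic malic enzyme that yields NADPH, at -0.38 (SE 0.10, adjusted p = 0.00732), with 443 ± 49.5 counts in unstimulated WT, 344 ± 50.1 in KO and 275 ± 45.9 in HA cells. Of 15 genes of acetate, acetyl-carnitine and other acetyl-CoA routes 2 were called, with a median of -0.03. CPT1A, which starts mitochondrial fatty acid import, was at -0.30 (adjusted p = 0.00483), and ALDH2, which oxidises acetaldehyde to acetate, was at 0.30 (adjusted p = 0.00727). Of 6 genes that use acetyl-CoA 1 was called, with a median of 0.12. ACAT2, the cytosolic acetoacetyl-CoA thiolase, was at 0.74 (SE 0.14, adjusted p = 0.000185), with 1995 ± 122 counts in unstimulated WT and 3676 ± 746 in HA cells. Without SA LPS replicate 1, 9 of 61 were called, these 5 among them, with DLAT, IDH3G, SDHA and SLC16A1. The number called among all 12402 genes rose as well, from 1812 to 2547. Whether the pathway genes rose by more than all genes was not tested. Without HA LPS replicate 1, 4 of 61 were called, ACAT2, ALDH2, CPT1A and ACOT8, so that PDP1 and ME1, which stood just under the limit of 0.01, no longer passed. In that fit 1680 of all 12402 genes were called, against 1812 with every library.

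**Figure D4:**
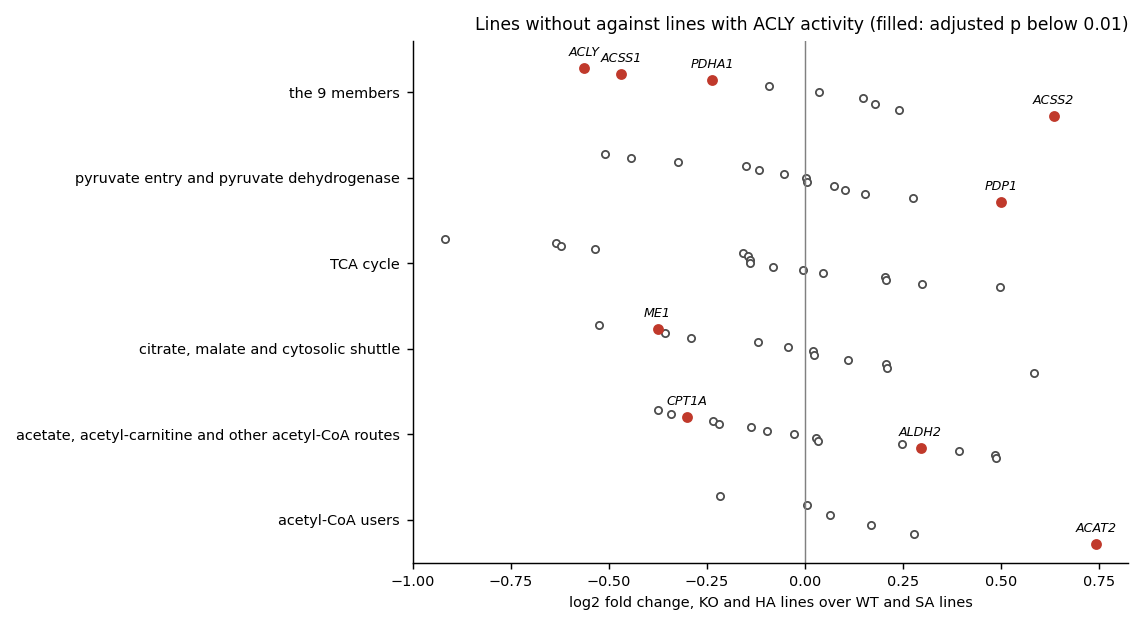
Log2 fold change of KO and HA over WT and SA libraries (horizontal axis) for the 9 genes and for the 61 genes of 5 pathway lists, with 1 point per gene, 16 libraries on each side, and filled, named points for an adjusted p below 0.01. ACSS2 (0.63), PDP1, ALDH2 and ACAT2 lie to the right and ACLY, ACSS1, PDHA1, ME1 and CPT1A to the left, while no TCA cycle gene passed.

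In the response to LPS, 1 of the 61 genes (1.64%) was called in each line. Of all genes, 0.25% were called in WT, 0.581% in KO, 0.403% in HA and 0.492% in SA. It was ACOD1, which makes itaconate from the citrate product cis-aconitate. This gene passed the filter on low counts only through its libraries after LPS. Its LPS response was thus tested on a gene admitted by the groups in which it is high. ACOD1 was at 0.28 ± 0.56 normalized counts in unstimulated WT and 22.0 ± 12.9 after LPS, and at 1.01 ± 1.31 and 106 ± 77.6 in KO cells. HA cells reached 32.4 ± 22.0 and SA cells 37.0 ± 18.5 after LPS. The log2 fold change was 4.09 in WT and 5.70 in KO (SE 0.60, adjusted p = 0.000272 and 4.4e-07), and its size depends on the 1 count added to each value, since unstimulated levels were near 0. The difference between these responses was 1.62 on the log2 scale and did not pass the test.

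Over the 32 libraries, the pair of members with the highest correlation was ACSS2 and SLC25A1 (Pearson r = 0.793, Spearman rho = 0.805, log2 values). Without the 2 libraries farthest from the ACSS2 median, which were HA LPS replicate 1 and SA LPS replicate 1, r was 0.721. Within a line, over 8 libraries that share a line, r was 0.663 in WT, 0.878 in KO, 0.681 in HA and 0.819 in SA. ACLY and ACSS1 had r = 0.686 (rho = 0.528), which was 0.418 without SA LPS replicate 1 and SA replicate 1 and ranged from -0.0213 in HA to 0.804 in SA. These values describe libraries that share lines, depth and size factors. Among all genes tested, the 5 most like ACSS2 over the 32 libraries were CST3 (r = 0.902), TAPBP, HYAL3, FAM234A and OGFOD3. Those most like ACLY included CD320 (r = 0.825, rho = 0.683), MAFG-AS1 (0.791, 0.757), POLE (0.782, 0.625) and TTLL12 (0.77, 0.575). These values include SA LPS replicate 1, the library with the highest ACLY count, and were not computed without it. The 5 most like ACSS1 were NDUFS6 (r = 0.877), NKD2, FXYD5, GBGT1 and CCDC28B. For PDHA1 the 5 were ZWILCH (r = 0.846), UBE2G2, MARCKS, ZNF121 and NPTX1.

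**Figure D5:**
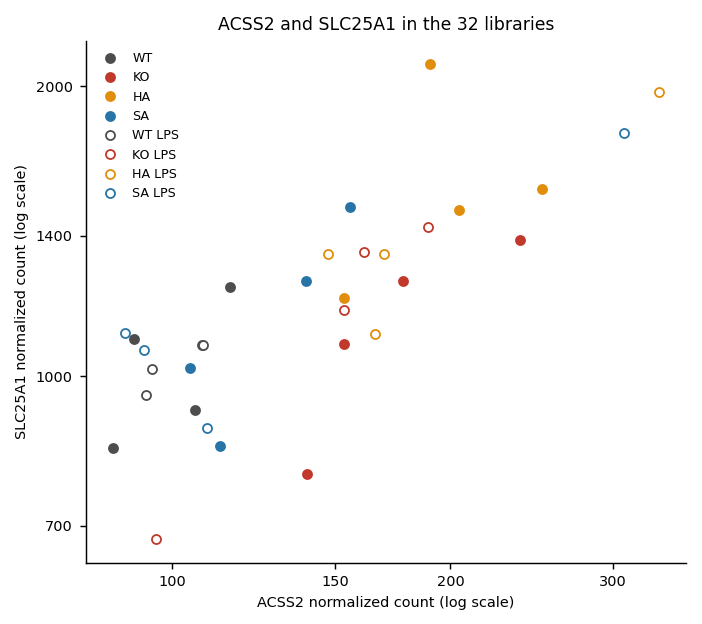
SLC25A1 against ACSS2 normalized counts (both axes on a log scale), with 1 point per library, coloured by line and open after LPS. The 32 libraries give r = 0.793, and HA LPS replicate 1 and SA LPS replicate 1 are the libraries with the highest ACSS2 count, at 336 and 308.

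The sequences before the start of ACSS2 and SLC25A1 are shown because these genes varied together. They come from the RefSeq promoter windows on GRCh38.p14, 250 bases before the start, without the bases that GENCODE places in an exon of the gene. Capitals mark GGGCGG, the motif of Sp1-type factors, and CCAAT, each read on both strands, so that CCGCCC and ATTGG are marked too. The ACSS2 stretch is chr20:34876362-34876571 on the plus strand, with 3 GGGCGG matches and no CCAAT. The SLC25A1 stretch is chr22:19178740-19178986 on the minus strand, with 8 GGGCGG matches, of which the last pair overlap, and 1 CCAAT.
ACSS2: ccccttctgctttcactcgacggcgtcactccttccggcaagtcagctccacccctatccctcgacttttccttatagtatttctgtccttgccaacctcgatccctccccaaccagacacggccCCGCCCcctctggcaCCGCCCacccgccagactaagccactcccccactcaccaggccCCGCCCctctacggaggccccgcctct
SLC25A1: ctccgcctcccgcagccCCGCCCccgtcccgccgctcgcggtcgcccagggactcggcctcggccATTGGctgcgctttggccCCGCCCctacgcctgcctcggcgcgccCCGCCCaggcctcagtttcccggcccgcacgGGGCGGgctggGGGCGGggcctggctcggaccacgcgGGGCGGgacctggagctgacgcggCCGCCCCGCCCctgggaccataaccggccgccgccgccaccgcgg

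Over the whole 250-base windows, GGGCGG was present in 8 of the 9 genes and in 42.6% of 35116 promoter windows, and CCAAT in 5 of 9 and in 32% of windows. For each of the 9 genes the window nearest its canonical start was taken, whereas the shares count every promoter window. The sets are thus unlike, and no enrichment was tested. TCACNCCAC, the core of a sterol response element, was present in 0 of 9 and in 0.883% of windows, which says only that these letters are not in these windows. The window listed for IDH2, without a GGGCGG match, belongs to a start site 1847 bases from the start of its canonical transcript.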

How the data were processed

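Total RNA of THP-1 cells was sequenced with the QuantSeq 3′ kit. Trimming, alignment by STAR to GRCh38 and gene counting by HTSeq-count were done by the authors, per their methods. The versions and the annotation are not given in the sources used here. The deposited values are normalized counts, made by the authors with DESeq2 and held in 8 tables, 1 for each group, in which decimals follow a comma and replicates are separate. They are not on 1 scale between tables: the size factors equalled median-of-ratios factors within each line (largest difference 0.0000%) and differed from factors over all libraries by up to 14.282%. Per the file headers each column is 1 library. Read counts were not given directly. In each library 100.000% of values above 0 were whole multiples of 1 read within 0.05 reads, which gave the reads.

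Groups and replicate numbers came from the labels. The 92 spike-in rows, with 1 read in all, were left out. Reads were divided by joint median-of-ratios factors. Genes with a mean of at least 10 were tested with limma 3.58.1 (R 4.3.3, lmFit, eBayes with trend) on log2 values of the normalized count plus a pseudocount of 1, with 8 group means and Benjamini-Hochberg adjustment over the 12402 genes, called below 0.01. Folds and 95% intervals come from this fit and understate the change of low genes. The fit was tested on simulated data. Per library, reads on genes had a median of 10247620.5, and reads are not independent molecules. Alternatives changed the scale, pseudocount, filter, threshold, weights, replicate block and libraries. Deviations of same-numbered WT and KO libraries, in both states, correlated across genes in every pair (r = 0.122 to 0.724). The highest r between libraries of unlike number was 0.317 to 0.431 in these group pairs, above several same-numbered values. The numbers were taken as pairs there, and not for HA or SA. Libraries of a group differed beyond counting noise (chi-square per gene from 4.74 to 291), so none was a copy.

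The 9 genes were given by name and named in all comparisons. From the lists, genes called between lines were named, and for called members the 5 genes with the highest correlation. The members, pathway and marker lists were chosen with earlier results of these data known. ACOD1 was named after its values were seen. Some items that these rules would name are not reported here. Positions are those of GENCODE release 44.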

Additional observations from a re-analysis of the deposited data

Results flagged for a closer look

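In 4 of the 72 sets of 4 libraries (9 genes in 8 groups), 1 library lay farther from the others than Dixon's limit at the 95% level, which chance alone gives in about 1 in 20 sets. In SA cells after LPS, replicate 1 had 329 normalized counts of ACLY against 95.8 to 110 in the other libraries, 308 of ACSS2 against 88.9 to 109, and 518 of ACSS1 against 221 to 246. In HA cells after LPS, replicate 1 had 336 of ACSS2 against 147 to 169. So 3 of the 4 came from SA LPS replicate 1, the library farthest from its group over all genes. No difference of the LPS response between lines passed the test for any of the 9 genes.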

How the results depend on the processing

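In single lines against WT, library weights called 2 genes in unstimulated KO (ACSS2 and ACSS1), 1 in unstimulated HA (ACSS2) and 1 in HA after LPS (ACSS2). A threshold of 0.05 called 1 in unstimulated HA (ACSS2). The replicate block in a fit of WT and KO libraries alone called 1 in unstimulated KO (ACSS2). It also raised the genes called between KO and WT from 362 to 1153 in unstimulated cells and from 431 to 1512 after LPS, and those of the LPS response from 31 to 126 in WT and from 72 to 116 in KO, and changed no other call of the 9 genes. With library weights, KO against WT went from 362 genes to 1077 in unstimulated cells and from 431 to 1113 after LPS, HA against WT from 313 genes to 2636 in unstimulated cells and from 250 to 1163 after LPS, KO against HA from 28 to 135 and from 1 to 55, and the LPS response in WT from 31 to 88, in KO from 72 to 110, in SA from 61 to 185 and in HA from 50 to 83. With only the compared groups fitted, KO against WT gave 180, HA against WT 196 and 133, KO against HA 0 and 0, and the LPS response 14 in WT, 21 in KO, 33 in HA and 7 in SA. Without WT replicate 1, HA against WT gave 187 and the LPS response in WT 16, without HA LPS replicate 1 HA against WT after LPS gave 155, and without KO replicate 1 KO against HA gave 8. The HA and SA numbers do not pair with WT, and the block over their lines called 0 of the 9 genes, with 595 genes for unstimulated HA against WT and 3 for the LPS response in SA. On the deposited scale, unstimulated HA against WT gave 505 genes and KO against HA after LPS 60.

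Between lines without and with ACLY activity, 4 to 4 genes were called with each of the 32 libraries left out in turn, and 0 in unstimulated libraries alone and 0 in LPS-treated libraries alone, chosen after seeing the data, which hold fewer libraries. The genes called among all 12402 ran from 742 to 3816 over the alternatives. The differences of genes that were not called turned direction for ACO1 in LPS-treated libraries alone (0.0372) and for CS on the deposited scale (-0.0668), in unstimulated libraries alone (-0.00681) and without SA LPS replicate 1 (-0.00526, the lowest value with 1 library left out, the highest being 0.0651 without KO replicate 3). The cause was not tested. On the deposited scale a typical gene is shifted relative to WT by -0.0957 (KO), 0.1518 (HA) and 0.2647 (SA), and in the activity comparison by -0.1028, while the 4 called genes kept their direction. The planned count tests on the recovered reads were not run, and limma voom was added after seeing the data and called the same 4 genes. Libraries of a group spread well beyond counting noise, and the member with the fewest reads, ACLY with 52 in the lowest library, had an SE of 0.28 against 0.29 for IDH1.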
